A study of Mus musculus with 6 samples.

Results

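The genes described here are those named for the protein subunits of the mitochondrial ribosome. They were taken as all rows of the array table whose single annotated gene symbol starts with Mrpl (large subunit) or Mrps (small subunit) followed by a digit, with the brightest probe set standing for a gene that had several. This gave 77 of the 19938 genes with a single symbol on the array, 48 named for the large and 29 for the small subunit. RefSeq names 78 protein-coding genes of this kind in the mouse, and the remaining one, Mrpl53, shared its row with Ccdc142 and was left out. The cells were AML-12, a hepatocyte line derived from a mouse transgenic for human transforming growth factor alpha. All 6 samples came from AML-12 cells stably transduced with a pSUPER.retro.puro retrovirus and selected with puromycin at 10 ug, as the labels write it, for 2 weeks. In siMnSOD cells (3 arrays) the virus carried a hairpin with a sense arm of 20 nt from MnSOD, designed for mild silencing, and in siScramble cells (3 arrays) a hairpin whose sense arm, also of 20 nt, was scrambled so as to recognise no gene. The RNA of each sample was hybridised to 1 Affymetrix array, of the type Mouse Gene 1.0 ST. The titles call the samples biological replicates and the design text speaks of separate frozen batches of cells, but neither says whether a batch was a separate transduction, nor whether clones were picked, so the spread behind each p-value may be partly technical. Because whole cultures were measured, fewer cells of a kind and less RNA per cell cannot be told apart.

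Mitochondria keep a ribosome of their own, built in the matrix from rRNAs transcribed from mitochondrial DNA and from proteins that are all encoded in the nucleus, made in the cytosol and imported. It translates only the few membrane proteins of the respiratory chain and ATP synthase that mitochondrial DNA encodes. About its bacterial-like core lie many proteins found only in mitochondria, and the large subunit is held at the inner membrane so that its products are inserted as they are made. MnSOD, the product of Sod2, is the superoxide dismutase of the same compartment, and the comparison asks which transcripts differ when it is silenced.

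Sod2 was measured first, as the check of the labels. Its log2 intensity was 6.63, 6.92 and 5.71 on the siMnSOD arrays of replicates 1, 2 and 3, and 7.95, 7.99 and 8.20 on the siScramble arrays, so the groups did not overlap. The log2 fold change was -1.63 (SE 0.30, adjusted p = 0.0369 over all tested rows), which left 32.4% of the siScramble intensity. The call was lost when siMnSOD replicate 1 or 2 or siScramble replicate 1 or 2 was left out (adjusted p = 0.102, 0.0717, 0.118 and 0.133), at fold changes between -1.88 and -1.66. Of 10 measured hepatocyte markers 7 lay above a guide to background of 4.28 on the log2 scale. Hnf4a, Foxa2, Apob and Trf were among these, while Alb, Ttr and Cps1 were not above it, so several genes that define mature liver cells were at background in this line. Hnf4a was itself higher in siMnSOD cells (log2 fold change 1.09, adjusted p = 0.0132). The summed intensity of 3 biliary markers ranged from 3880 to 4167 in siMnSOD and from 1891 to 3278 in siScramble arrays, with Krt7 and Krt19 higher on every siMnSOD array and Sox9 called lower (log2 fold change -0.86, adjusted p = 0.0273). The sum of 4 epithelial markers also did not overlap (14049 to 15903 against 9216 to 13871), while hepatocyte, macrophage, endothelial and stellate sums overlapped. Of the epithelial markers Krt8 alone was higher on every siMnSOD array (log2 fold change 0.59, adjusted p = 0.124). Krt18, Cdh1 and Epcam overlapped, at 0.13, -0.07 and -0.02, and Epcam was not above background. The part of these marker differences in the results below was not tested. Replicate 3 of both groups stood apart from replicates 1 and 2 over the whole table, and results that depend on it are given with and without it.

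Sequence before the start of 4 members is shown because these are the large subunit members with the 3 smallest p-values and the small subunit member with the smallest. For Mrpl51 that p-value comes from a probe set that may measure a copy of the gene, as described below. The bases are the 150 before the annotated start in RefSeq on GRCm38.p6, written 5′ to 3′ along the gene, and capitals mark a match to 1 of 6 motifs searched.
Mrpl18, chr17:12916092-12916241, minus strand: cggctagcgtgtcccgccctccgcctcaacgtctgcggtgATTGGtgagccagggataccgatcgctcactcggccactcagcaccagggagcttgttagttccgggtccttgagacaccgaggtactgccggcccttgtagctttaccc
Mrpl45, chr11:97315566-97315715, plus strand: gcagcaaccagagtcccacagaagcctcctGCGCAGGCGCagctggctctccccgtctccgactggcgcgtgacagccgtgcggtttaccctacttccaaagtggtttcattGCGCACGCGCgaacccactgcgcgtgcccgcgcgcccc
Mrpl51, chr6:125192050-125192199, plus strand: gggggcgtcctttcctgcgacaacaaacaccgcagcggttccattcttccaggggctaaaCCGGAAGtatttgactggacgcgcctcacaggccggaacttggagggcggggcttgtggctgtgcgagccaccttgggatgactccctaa
Mrps15, chr4:126046778-126046927, plus strand: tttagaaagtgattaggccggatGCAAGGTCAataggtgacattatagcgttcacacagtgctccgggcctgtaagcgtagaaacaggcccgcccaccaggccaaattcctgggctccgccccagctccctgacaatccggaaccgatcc
The capitals mark a CCAAT box read on the opposite strand in Mrpl18, a pair of NRF1 motifs in Mrpl45, an ETS motif of the kind GABPA binds (CCGGAAG) in Mrpl51, and an antioxidant response element (TGACNNNGC) read on the opposite strand in Mrps15. Mrps33 and Mrps7, next by p-value in the small subunit and not printed, held no match in their 150 bases. NRF1 and GABPA are factors long known for nuclear genes of mitochondrial function. The whole windows searched ran from 250 bases before to 50 after the start, on both strands, and a match was counted whether or not it overlapped another motif. RefSeq promoters were found for 68 of the 77 members (74 windows). The NRF1 motif was present in 17.6% of the member windows, in 4.6% of all 32851 promoters and in 6.38% of those of protein-coding genes. For the ETS motif the shares were 33.8%, 8.86% and 11.6%, and for the YY1 motif AAGATGGCG 10.8%, 1.4% and 1.83%. The E-box CACGTG (9.46%, 7.15% and 7.84%), CCAAT (39.2%, 37.4% and 38.2%) and the antioxidant response element (18.9%, 12.4% and 13.0%) lay closer to the shares over all promoters. Median GC content was 58.5% in member windows, 56.3% for protein-coding genes and 52.7% for all promoters. The ETS motif was found in 29.8% of large and 40.7% of small subunit windows, and the NRF1 motif in 21.3% and 11.1%. A match is a description of the letters and says nothing of binding, and 13 members held none of the 6 motifs.

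Most mitochondrial ribosomal protein genes had a higher mean in siMnSOD than in siScramble cells, by small amounts. The log2 fold change was above 0 for 68 of 77 members, and its median was 0.28 (1.21-fold), against a median of 0.003 and 50.8% positive among the 12888 genes above background, and 0.01 and 52.3% among all 19938 genes. All 77 members lay above background, with mean log2 intensities of their probe sets between 5.75 and 9.91. Few members passed the test gene by gene: 2 were called higher at an adjusted p under 0.05 and none lower, where the calls over all genes came to 2.17% higher and 1.58% lower. The members called higher thus made up 2.6%, between that share and the 3.34% called higher among genes above background. With the replicate number as a block in the fit 10 members were called higher (13.0%) and none lower, against 4.02% and 3.12% of all genes and 6.21% higher among those above background. Every siMnSOD array lay above every siScramble array for 22 members (28.6%), against 11.1% of all genes and 15.5% of those above background, and below for 1 member, against 9.72%.

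**Figure D1:**
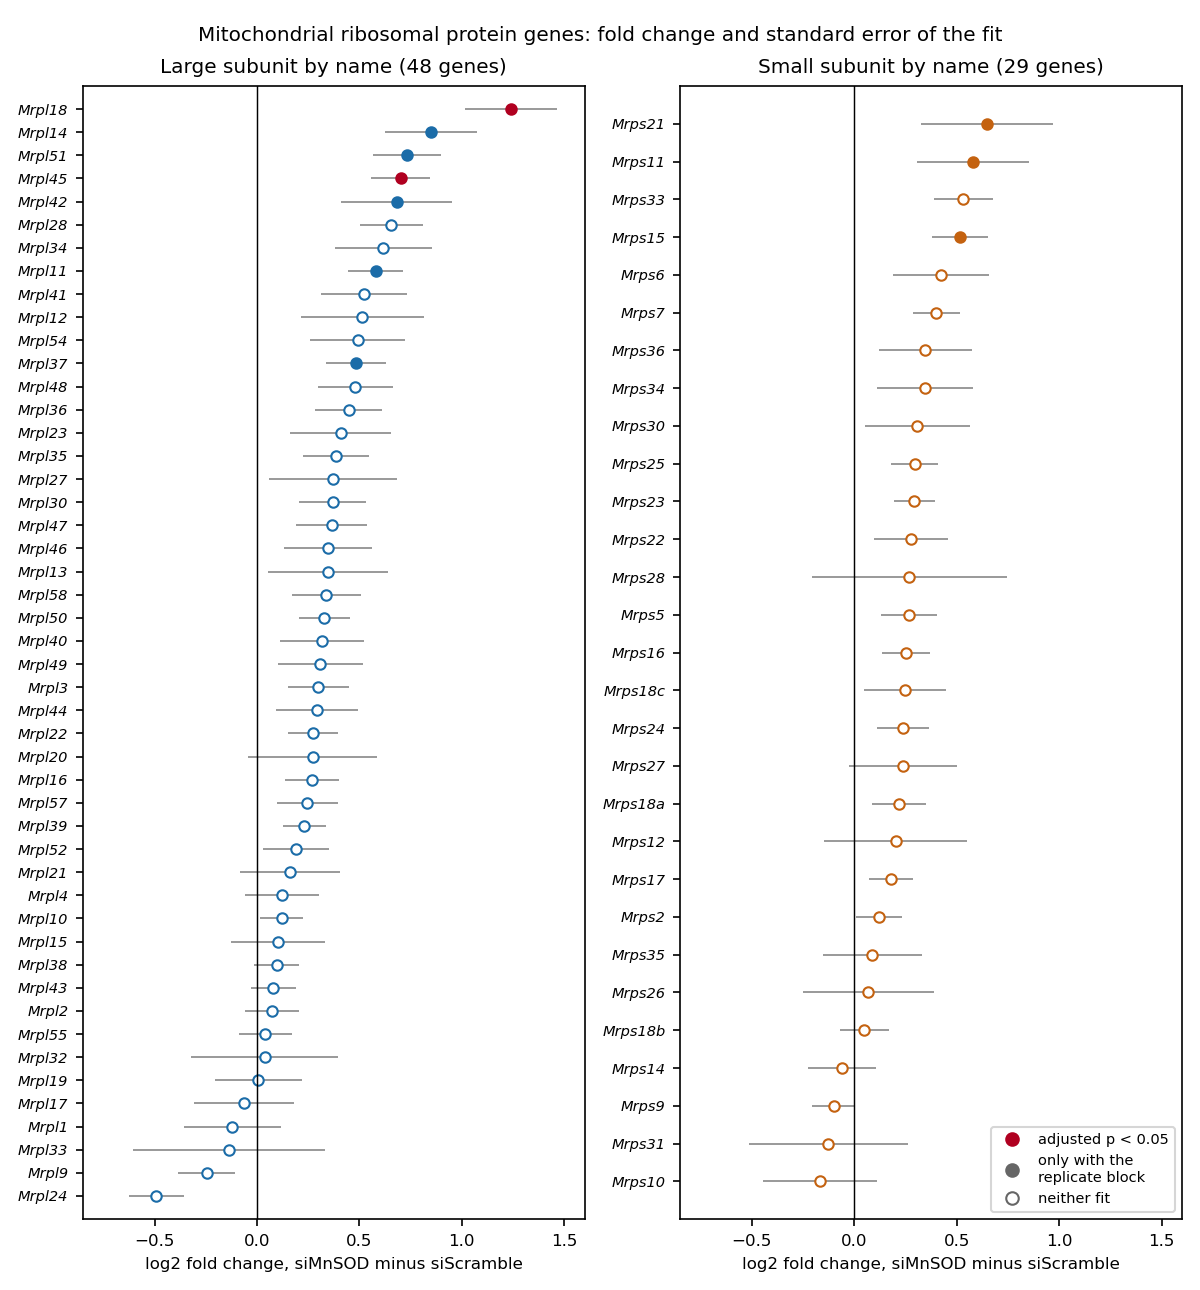
Log2 fold change (siMnSOD minus siScramble, x axis) of each large subunit gene (48, left) and small subunit gene (29, right), with bars for the standard error of the fit without a block. Most points lie right of 0 with bars that reach near it; Mrpl18 (1.24) and Mrpl45 (0.70) are called, filled points of the other colours are called only with the replicate block, and Mrpl24 lies farthest left (-0.49).

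Of the 48 large subunit genes, 43 had a log2 fold change above 0. The median was 0.31 (1.24-fold), with quartiles of 0.12 and 0.48 and a range from -0.49 to 1.24. Mrpl18 and Mrpl45 were called higher (4.17%, against 2.17% of all genes and 3.34% of those above background) and no gene lower. The replicate block raised the genes called higher to 7 (14.6%, against 4.02% and 6.21%), adding Mrpl11, Mrpl14, Mrpl37, Mrpl42 and Mrpl51. At an unadjusted p under 0.05 there were 14 higher and 1 lower, against 8.61% and 8.06% of all genes. The groups did not overlap for 14 genes in the higher direction (29.2%, against 11.1% of all genes and 15.5% of those above background). They did not overlap for 1 in the lower direction, against 9.72% of all genes, and overlapped for 33.

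The central protuberance, which in bacteria carries the 5S rRNA, held the member with the greatest fold change. Mrpl18, homologue of a bacterial protein that binds 5S rRNA, had log2 intensities of 9.82, 9.81 and 9.18 in siMnSOD replicates 1, 2 and 3 and of 8.56, 8.48 and 8.05 in siScramble. The lowest siMnSOD array lay well above the highest siScramble array, and replicate 3 was the lowest of both groups. Mrpl18 rose by 1.24 (SE 0.22, adjusted p = 0.0346, and 0.00716 with the block), a 2.36-fold difference. The call was lost without siMnSOD replicate 1 or 2 or siScramble replicate 1 or 2 (adjusted p = 0.126, 0.168, 0.0921 and 0.114), with the fold change between 1.13 and 1.34, and also when arrays were centred on their medians (adjusted p = 0.069, fold change 1.33) or every probe set was tested (0.0601). The other 4 genes of the protuberance, Mrpl38, Mrpl40, Mrpl46 and Mrpl48, had log2 fold changes of 0.10, 0.32, 0.35 and 0.48 and none was called.

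At the exit of the nascent chain tunnel, where the subunit meets the inner membrane, 4 of 6 genes had positive values. Mrpl45, which anchors the ribosome to that membrane, had 8.65, 8.87 and 9.14 in siMnSOD and 8.22, 8.12 and 8.21 in siScramble cells. The siScramble arrays lay close together, and all siMnSOD arrays were above them. Mrpl45 rose by 0.70 (SE 0.14, adjusted p = 0.0494, and 0.0389 with the block). This call sits at the threshold: it was lost under quantile normalization (0.0621), with a trended robust prior (0.0593), when every probe set was tested (0.0834) and without any 1 of siMnSOD replicates 1, 2 and 3 or siScramble replicates 1 and 2 (adjusted p = 0.0705, 0.202, 0.0717, 0.161 and 0.19). Mrpl24, whose bacterial counterpart starts large subunit assembly, went the other way. It had 8.46, 8.56 and 8.63 in siMnSOD and 8.93, 8.91 and 9.28 in siScramble cells, the only member for which every siMnSOD array lay below every siScramble array. Its log2 fold change of -0.49 (SE 0.13) was not called (adjusted p = 0.112, and 0.0517 with the block). Mrpl22, Mrpl23, Mrpl47 and Mrpl17 had values of 0.27, 0.41, 0.36 and -0.06.

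The stalk recruits the elongation factors and is formed by Mrpl10, Mrpl11 and Mrpl12. Mrpl11 had 9.72, 9.86 and 9.48 in siMnSOD and 9.17, 9.18 and 8.97 in siScramble cells, without overlap. Its log2 fold change was 0.58 (SE 0.13, adjusted p = 0.0705), and with the block it was called (0.0289). Mrpl12, which also binds the mitochondrial RNA polymerase, had 0.51 with a wide error (SE 0.30), and Mrpl10 had 0.12. Around the catalytic centre Mrpl2, Mrpl3, Mrpl16 and Mrpl27 had 0.08, 0.30, 0.27 and 0.37, and none was called in either fit.

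Among the other homologues of bacterial proteins Mrpl14, which lies at the interface of the subunits, had 7.25, 7.35 and 6.65 in siMnSOD and 6.27, 6.49 and 5.94 in siScramble cells. The groups did not overlap, but replicate 3 was the lowest in each. The log2 fold change of 0.85 (SE 0.22) was called only with the block (adjusted p = 0.102 without and 0.0169 with it). Mrpl28 had 7.64, 7.87 and 7.46 against 7.22, 6.88 and 6.90, again without overlap, and its fold change of 0.66 (SE 0.15) passed neither fit (0.0732 and 0.0559). Mrpl36 had 0.45 (SE 0.16, adjusted p = 0.226). Over all 29 homologues of bacterial large subunit proteins 24 were positive, with a median of 0.27, and Mrpl1, Mrpl9, Mrpl17, Mrpl24 and Mrpl33 were negative.

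The 19 large subunit genes without a bacterial counterpart all had positive values, from 0.04 (Mrpl55) to 0.73 (Mrpl51), with a median of 0.33. Mrpl45 was the one called, and the block added Mrpl37, Mrpl42 and Mrpl51. Mrpl51 had 9.32, 9.45 and 9.23 in siMnSOD and 8.80, 8.74 and 8.26 in siScramble cells, a log2 fold change of 0.73 (SE 0.17, adjusted p = 0.0665, and 0.033 with the block). That value rests on the brighter of its 2 probe sets: the dimmer had 7.72, 7.72 and 7.89 against 7.37, 7.79 and 7.99, with overlap and a fold change of 0.06 (SE 0.18). The mean of both gave 0.39. The brighter set's number lies between those of Mrps2 and Mrps26, both on chromosome 2, whereas Mrpl51 lies on chromosome 6. The dimmer set's number lies near those of Mrpl35 and Mrps25, both on chromosome 6. By this order only the dimmer set falls with the chromosome of the gene, so the value of 0.73 may be that of a near copy. Positions of the probe sets were not given, and this was not settled. Mrpl37 had 8.22, 8.43 and 8.63 against 7.83, 7.88 and 8.12, a fold change of 0.48 called only with the block (adjusted p = 0.143 and 0.0397). Mrpl42 had 0.68 (0.27 and 0.0493) with groups that overlapped.

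In 8 members a second probe set could be compared. The fold changes of the brighter and dimmer set were 0.41 and 0.41 for Mrpl23, 0.53 and 0.48 for Mrps33, 0.35 and 0.39 for Mrps36, 0.37 and 0.29 for Mrpl27, and 0.52 and 0.41 for Mrpl41. They lay farther apart for Mrps5 (0.27 and 0.12), Mrpl47 (0.36 and 0.16) and Mrpl51. As with Mrpl51, the brighter sets of Mrps33 (chromosome 6) and Mrpl41 (chromosome 2) had numbers among those of members on chromosome 7. That of Mrpl27 (chromosome 11) lay between Mrpl18 on chromosome 17 and Mrpl21 on 19. The only set of Mrpl48 (chromosome 7) lay between Mrpl50 and Mrpl37 on chromosome 4. Whether these sets measure the gene or a copy was not settled. RefSeq lists 6 pseudogenes of members, of Mrpl23, Mrpl27, Mrpl48 and Mrps36, and probes can take signal from such copies.

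**Figure D2:**
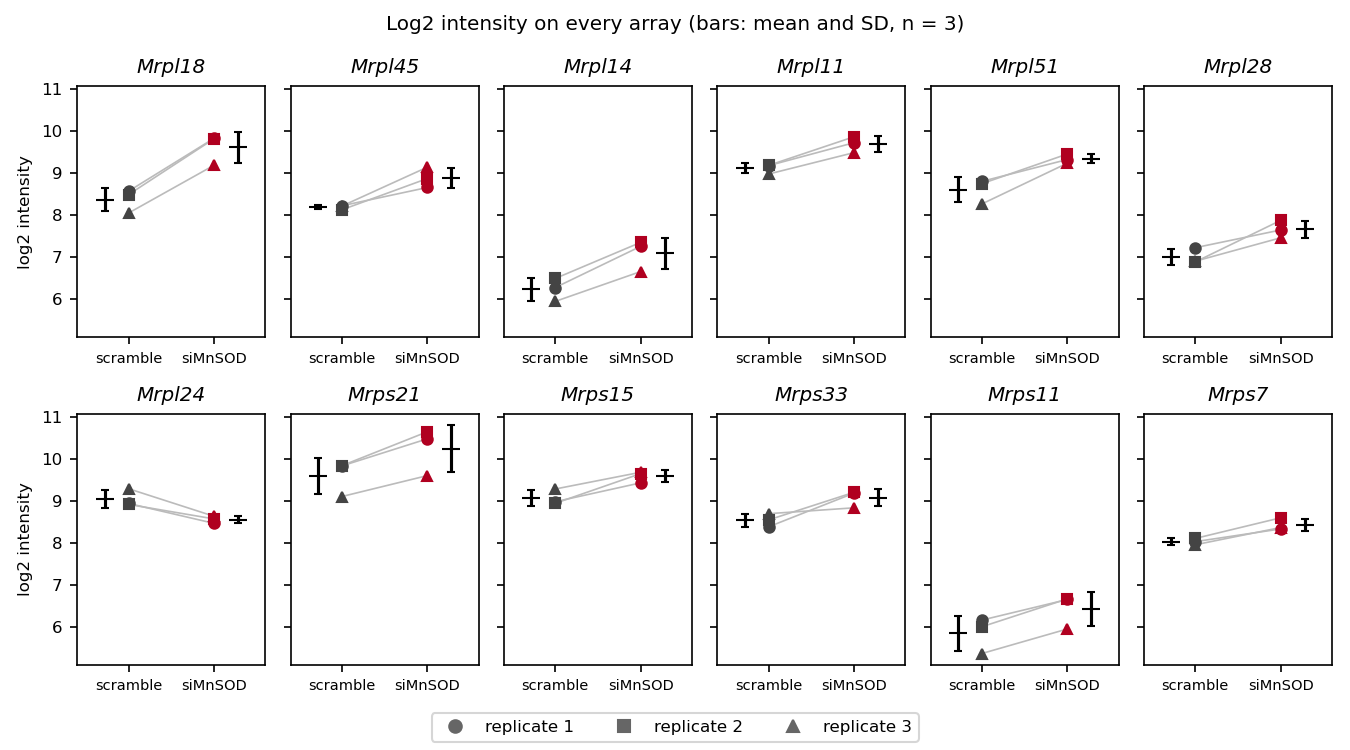
Log2 intensity (y axis) of 12 members on every array, siScramble left and siMnSOD right; grey lines join equal replicate numbers, symbols give the number, and bars are the mean and SD of 3 arrays. The lines rise in 11 panels and fall in that of Mrpl24. Replicate 3 (triangles) is the lowest of both groups for Mrpl18, Mrpl14, Mrpl11, Mrpl51, Mrps21 and Mrps11.

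Of the 29 genes named for the small subunit, 25 had a log2 fold change above 0. The median was 0.25 (1.19-fold), with quartiles of 0.12 and 0.35 and a range from -0.17 to 0.65. None was called by limma in either direction, while 5 (against 8.61% of all genes) were higher at an unadjusted p under 0.05. With the replicate block Mrps11, Mrps15 and Mrps21 were called higher, 10.3% of the 29 against 4.02% of all genes. The groups did not overlap for 8 genes (27.6%, against 11.1% of all genes), all higher in siMnSOD cells, and overlapped for 21. The medians of the subunits differed by less than the quartile range of either, and a difference between the subunits was not tested. Mrps18a and Mrps30 carry small subunit names although their proteins lie in the large subunit, and moving them left medians of 0.31 and 0.25.

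The 9 homologues of bacterial proteins of the platform and body all had positive values, with a median of 0.25. Mrps15 had 9.42, 9.64 and 9.67 in siMnSOD and 8.97, 8.94 and 9.28 in siScramble cells, without overlap. Its log2 fold change was 0.52 (SE 0.14, adjusted p = 0.102, and 0.0479 with the block). Mrps21 had 10.47, 10.64 and 9.60 against 9.83, 9.83 and 9.10, the greatest small subunit value at 0.65. The groups overlapped because siMnSOD replicate 3 fell below siScramble replicates 1 and 2, and the error of 0.32 shrank to 0.10 with the block (adjusted p = 0.417 and 0.03). Mrps11 had 6.65, 6.66 and 5.95 against 6.16, 6.0 and 5.37, and its fold change of 0.58 likewise passed only with the block (0.385 and 0.0285).

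The decoding centre and head, where mRNA and tRNAs are read, gave 3 positive and 3 negative values among 6 genes, with a median of 0.07. Mrps7, which helps form the head, had 8.33, 8.59 and 8.36 against 8.02, 8.10 and 7.95, without overlap (log2 fold change 0.40, SE 0.12, adjusted p = 0.126). Mrps5 had 0.27 and Mrps12, of the decoding centre, 0.20 (SE 0.35). Mrps9, Mrps10 and Mrps14 had -0.10, -0.17 and -0.06, each within about 1 standard error of 0. With the block none of the 6 was called.

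The 11 genes fixed as mitochondrial additions to the small subunit had 10 positive values and a median of 0.27. Mrps24 and Mrps28 are in this list, though current naming pairs both with bacterial proteins. Mrps33 had 9.18, 9.20 and 8.83 against 8.38, 8.54 and 8.69, without overlap, and a log2 fold change of 0.53 (SE 0.15) that neither fit called (adjusted p = 0.112 and 0.113). Mrps23 and Mrps25, both without overlap, had 0.29 and 0.29. Mrps31 was the negative one, at -0.13 (SE 0.39). Mrps36, named for the small subunit but a subunit of the 2-oxoglutarate dehydrogenase complex, stands outside these lists and had 0.35 (SE 0.23). Leaving it out gave a small subunit median of 0.25.

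The comparison was then made within each replicate number. The median difference of the large subunit genes was 0.26, 0.42 and 0.23 in replicates 1, 2 and 3, with 38, 43 and 34 of 48 positive. For the small subunit genes it was 0.28, 0.38 and 0.11, with 25, 26 and 23 of 29 positive. The medians over the genes above background were 0.02, 0.01 and -0.01. A positive difference in all 3 replicate numbers was found for 30 large and 20 small subunit genes, together 64.9% of the members, against 22.6% of all genes and 26.3% of those above background. A negative difference in all 3 was found for Mrpl1, Mrpl9, Mrpl24 and Mrpl33, against 20% of all genes.

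**Figure D3:**
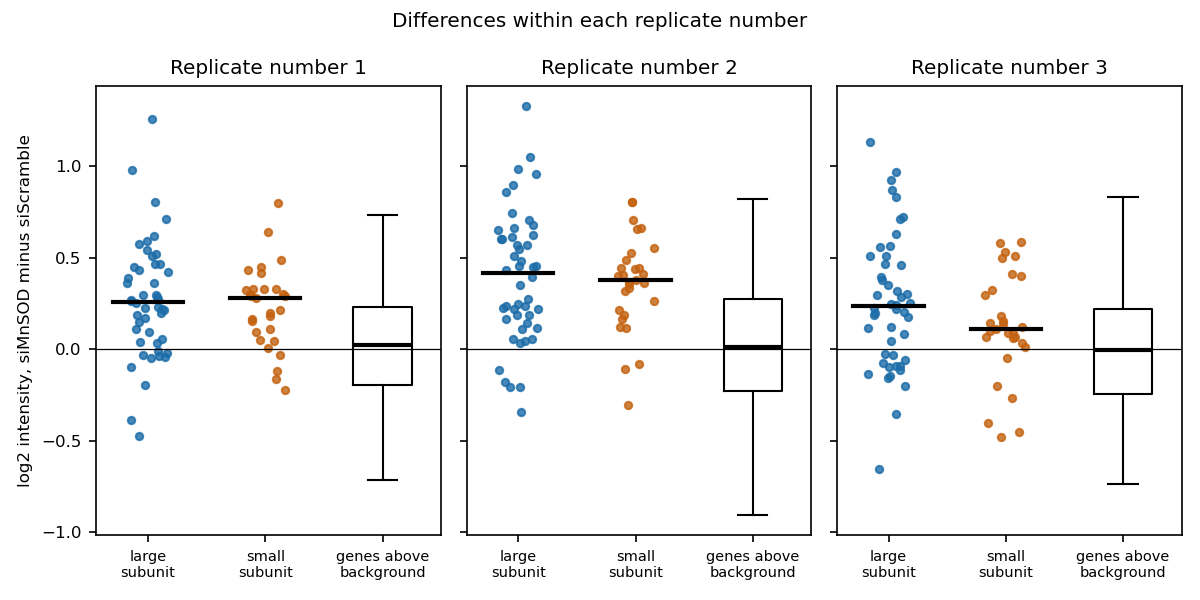
Difference in log2 intensity (siMnSOD minus siScramble, y axis) within replicate numbers 1, 2 and 3, with a point for each large (blue) and small (orange) subunit gene, horizontal bars at their medians, and box plots of the 12888 genes above background (box: quartiles, whiskers: 5th and 95th percentiles). The member medians lie above 0 in each panel (0.26, 0.42 and 0.23 for large, 0.28, 0.38 and 0.11 for small), and the box medians lie near 0 (0.02, 0.01 and -0.01).

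Replicate 3 gave a partly different order of genes. The correlation of the 77 differences was 0.835 between replicate numbers 1 and 2, 0.418 between 1 and 3 and 0.430 between 2 and 3, and over all genes it was 0.810, 0.511 and 0.529. These are descriptions across genes, which share the same arrays and are not independent. Mrpl41 showed it plainly, with differences of 0.81, 0.90 and -0.14. Mrpl44, a protein with a ribonuclease III-like fold, had 0.62, 0.61 and -0.35, and Mrpl30, Mrpl35, Mrps5 and Mrps36 also turned negative in replicate 3. Mrpl12 and Mrpl20 went the other way, with 0.45, 0.22 and 0.87 and with -0.02, 0.11 and 0.72.

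Within each group, too, mitochondrial ribosomal protein genes were lower in replicate 3. Compared with the mean of replicates 1 and 2, the median large subunit gene was lower by 0.40 in siMnSOD (42 of 48 genes lower) and by 0.36 in siScramble cells (34 of 48). For the small subunit the medians were -0.40 (26 of 29) and -0.22 (19 of 29), whereas genes above background had medians of 0.02 and 0.05. Most related lists were lower in replicate 3 as well. In siMnSOD and siScramble cells the medians were -0.36 and -0.44 for the 4 ribosomal proteins with other names, -0.19 and -0.21 for assembly factors, -0.23 and -0.09 for translation factors, and -0.28 and -0.09 for cytosolic ribosomal proteins. Genes of mitochondrial transcription and biogenesis had -0.04 and -0.35. Of the transcripts named for genes of mitochondrial DNA, COX2 was higher in replicate 3 (0.36 in siMnSOD and 0.54 in siScramble cells). ND3 was lower (-0.44 and -0.18). The shifts of the members were similar in size to the differences between the groups. They were deepest for Mrpl33 in siMnSOD cells (-1.30, and -1.26 in siScramble) and for Mrps28 in siScramble cells (-1.47, and -1.11 in siMnSOD), while Mrpl4 and Mrpl37 were higher in replicate 3 (0.46 and 0.36, and 0.31 and 0.27). Across the 77 members the shifts in the groups correlated at 0.684, and at 0.553 over all genes, again as a description. This shift lies inside the error of the fit without a block: the median standard error of the large subunit genes was 0.18 without and 0.10 with it, and for Mrpl33 it was 0.47 and 0.08. What sets replicate 3 apart is not given in the labels, and its cause was not tested.

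**Figure D4:**
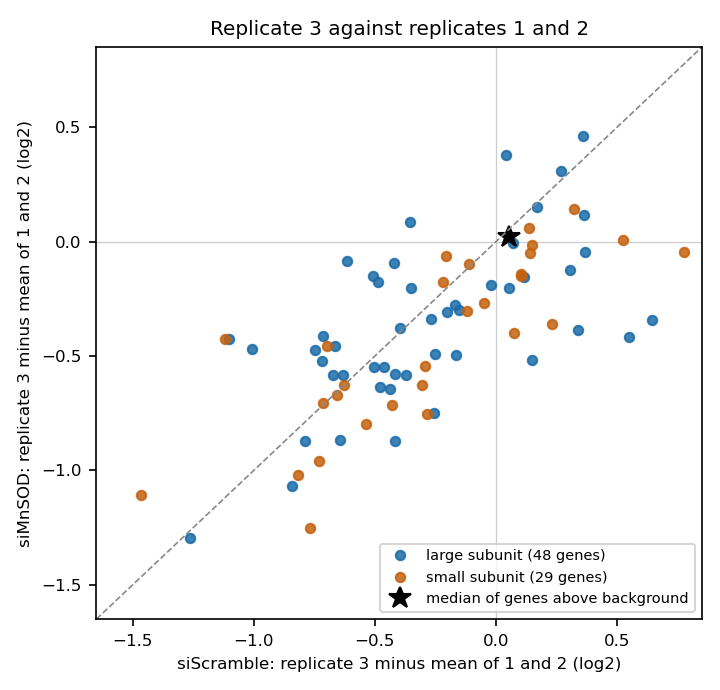
Log2 intensity of replicate 3 minus the mean of replicates 1 and 2 for each member, in siScramble (x axis) and siMnSOD (y axis); blue points are large and orange points small subunit genes, the dashed line marks equal shifts, and the star is the median of the genes above background. Most members lie in the lower left, with shifts below 0 in both groups, while the star lies near 0 on both axes (0.05 and 0.02).

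The count of calls varied with the arrays used. With replicates 1 and 2 alone (2 arrays a group), 22 large subunit genes were called higher and 1, Mrpl24, lower, and 12 small subunit genes were called higher. The calls over all genes rose from 748 to 4275, of which 2343 were higher (11.8% of all genes) and 1932 lower. Without siScramble replicate 3 the calls were Mrpl18, Mrpl41, Mrpl45, Mrpl50 and Mrpl51 in the large and Mrps15 and Mrps36 in the small subunit, at medians of 0.20 and 0.18. At that setting 5.61% of all genes were called higher. Without siMnSOD replicate 3 the calls were Mrpl14 and Mrpl18, at medians of 0.42 and 0.36, where 1.79% of all genes were called higher. No member was called without any 1 of the other 4 arrays, where 0.261% to 0.667% of all genes were called higher. Without siMnSOD replicate 2 the medians were 0.20 for the large and 0.14 for the small subunit.

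Genes that work with the mitochondrial ribosome were read from lists of their own. Of the 4 measured ribosomal proteins with other names, Dap3 had a log2 fold change of 0.28, Chchd1 0.18, Gadd45gip1 0.09 and Ptcd3 -0.08, and none was called. Of 27 assembly factors 16 were positive (59.3%, against 52.3% of all genes) with a median of 0.09, and 2 were called higher (7.41%, against 2.17%). Mpv17l2, an inner membrane protein needed for ribosome assembly, had 9.37, 9.49 and 9.53 against 8.63, 8.52 and 8.93 and rose by 0.77 (SE 0.14, adjusted p = 0.0325). Noa1, a GTPase that acts in small subunit assembly, had 8.57, 8.65 and 8.34 against 7.88, 7.82 and 7.77 and rose by 0.69 (SE 0.12, adjusted p = 0.0296). Neither gene's groups overlapped. With the block the list had 3 higher (11.1%, against 4.02% of all genes), adding the 12S rRNA chaperone Eral1 (0.51, adjusted p = 0.0607 and 0.0356), and 1 lower, Mterf3 (-0.51, 0.502 and 0.0491).

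Of 16 mitochondrial translation factors 13 were positive, with a median of 0.16, and 1 was called higher (6.25%, against 2.17% of all genes). Tufm, the elongation factor that brings aminoacyl-tRNA to the ribosome, had 9.94, 10.09 and 10.04 against 9.15, 9.16 and 9.55 and rose by 0.74 (SE 0.14, adjusted p = 0.0397). The arrays did not overlap, and siScramble replicate 3 lay above the other controls. Gfm1, the elongation factor of translocation, had 0.54 and was called only with the block (adjusted p = 0.0575 and 0.0498). The calls of Tufm, Mpv17l2 and Noa1 were lost without siMnSOD replicate 1 (adjusted p = 0.115, 0.0979 and 0.119), siMnSOD replicate 2 (0.192, 0.16 and 0.148), siScramble replicate 1 (0.157, 0.136 and 0.112) or siScramble replicate 2 (0.167, 0.136 and 0.135), and those of Tufm and Mpv17l2 also without siMnSOD replicate 3 (0.0898 and 0.0788). All of these calls were lost when every probe set was tested (0.0689, 0.0585 and 0.0545), that of Tufm also under quantile normalization (0.0574) and that of Noa1 with centred arrays (0.0734). Of the transcripts that the mitochondrial ribosome translates, only those named COX2 and ND3 could be read, at -0.05 (SE 0.19) and 0.05 (SE 0.15), with groups that overlapped. The number of the COX2 probe set lies near that of Mrps14 on chromosome 1 and far from that of ND3. Whether it measures a copy was not settled, and the proteins made were not measured.

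None of the 13 genes of mitochondrial transcription and biogenesis had a positive log2 fold change, and their median was -0.19. Polrmt lay at -0.0003. Within replicate numbers 1, 2 and 3 the median differences were -0.32, -0.26 and -0.04, with 1, 2 and 5 of the 13 positive. Of the 13 genes, 1 was called lower, where 1.58% of all genes were. Myc, a transcription factor whose known targets include ribosome genes, fell by 1.16 on the log2 scale (SE 0.20, adjusted p = 0.0293). It had 9.90, 10.09 and 10.03 in siMnSOD and 11.39, 11.39 and 10.73 in siScramble cells, with no overlap and siScramble replicate 3 the lowest control. That call was lost when any 1 of the arrays other than siScramble replicate 3 was left out (adjusted p = 0.0717 to 0.127), with centred arrays (0.0847) and when every probe set was tested (0.0525). Ppargc1a, a coactivator of mitochondrial genes, had -0.60 and was called only with the block (0.127 and 0.0368). Nrf1 and Gabpa, the factors of the NRF1 and ETS motifs above, had -0.07 and -0.19, Tfam -0.22 and Yy1 -0.10, and none of these was called in either fit. The uniform sign depends on the bounds of the list. Tfb1m, Mterf4 and Mterf3, named for transcription, were counted with the assembly factors. They had 0.57 (without overlap), 0.26 and -0.51.

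The 61 cytosolic ribosomal protein genes, encoding the subunits of the ribosome outside mitochondria, had a median of -0.03, with 24 positive and none called. At an unadjusted p under 0.05 there was 1 higher (Rpl14, 0.49) and 1 lower (Rpl12, -0.71), and with the block Rpl14 alone was called (adjusted p = 0.0446). Of the 61, 58 lay above background, and many genes of this family have near-identical copies in the genome. The difference between the mitochondrial and the cytosolic lists was not tested.

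**Figure D5:**
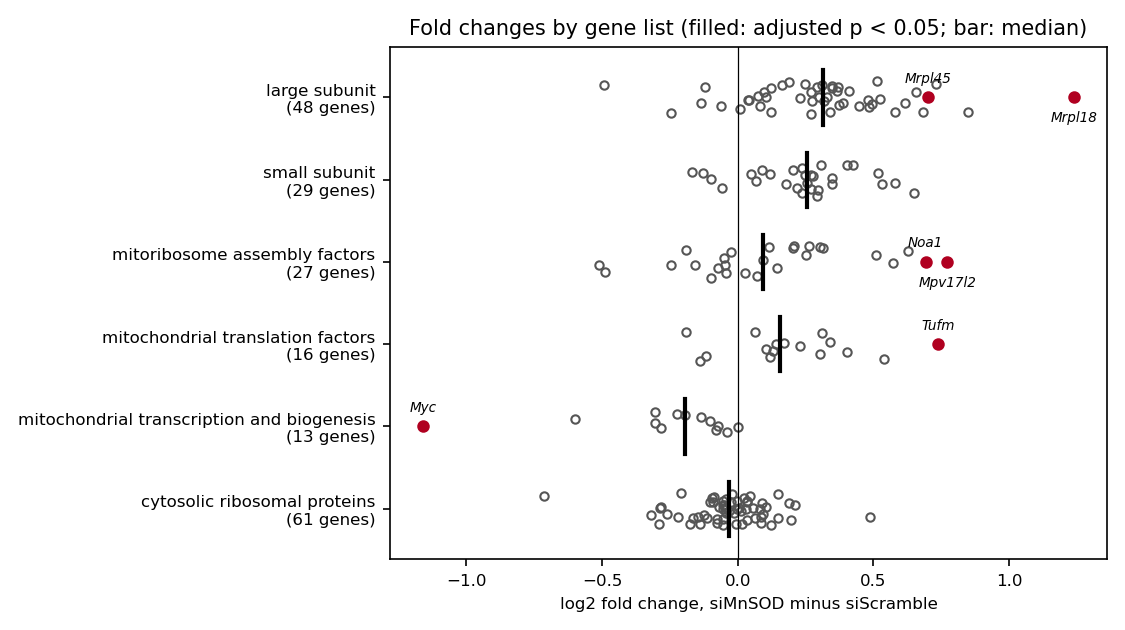
Log2 fold change (siMnSOD minus siScramble, x axis) of each gene in 6 lists (y axis, with the number of genes); open points were not called, filled and named points had an adjusted p under 0.05, vertical bars are medians, and vertical scatter only separates points. The medians are 0.31 and 0.25 for the mitochondrial ribosomal proteins, 0.09 for assembly factors, 0.16 for translation factors, -0.19 for transcription and biogenesis and -0.03 for cytosolic ribosomal proteins.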

How the data were processed

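RNA of 6 AML-12 samples was measured, 3 per group, with 150 ng of total RNA labelled per array, per the labels. The authors deposited linear intensities, 1 value for each probe set on each array. They were made with RMA per the submitters' processing notes, whereas the labels' design text names MAS5 scaling, and the background correction and versions were not stated in the labels. Of 35557 probe sets, 21789 had 1 gene symbol, 1621 several and 12147 none. Symbols were updated through 21698 Entrez identifiers matched in RefSeq (GRCm38.p6, names only). The 21559 rows tested included the rows with several symbols, which were never named. No filter on low values was used, and log2 of the deposited intensity was fitted with limma 3.58.1 in R 4.3.3 (group only), with Benjamini-Hochberg adjustment over all rows and a threshold of 0.05. The scripts were tested on simulated data. Fold changes are siMnSOD minus siScramble with the standard error of the fit. Precision is limited by the number of arrays. The guide to background was the 95th percentile of the means of 1027 olfactory receptor genes. Intensities of different probe sets do not rank genes by abundance.

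Both groups carry replicate numbers 1 to 3. Deviations from the group means of same-numbered arrays correlated at 0.298, 0.286 and 0.559 over the tested rows, each above 0.1, the limit set for calling the numbers pairs. For replicates 1 and 2 the crossed correlations were higher (0.465 and 0.407), and replicate 3 carries most of the pairing. What the number stands for is not stated in the labels, so the fit reported has no block, and the fit with the replicate block is given beside it where it changes a call.

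The members and lists were chosen with earlier results of these data known, so no list was given a test. The rule for naming genes took Sod2, members called or with the 10 smallest p-values in a subunit, the 3 of lowest fold change, the 2 brightest and 2 dimmest, the role lists, and up to 4 called genes, or else the 2 of smallest p, of the other lists. Other members, the second probe sets, genes called only with the block, the factors of the motifs, Tfb1m and Mterf4 were named after their values were seen, as was the cytosolic list chosen. Alternatives changed the normalization, the probe set rule, the prior, the dim rows, the symbols and the arrays used. Mrpl53 was not analysed here, and 9 members had no promoter in the table used.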

Additional observations from a re-analysis of the deposited data

How the results depend on the processing

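The medians of the large and small subunit genes kept their sign under every alternative run: they lay at 0.40 and 0.34 with arrays centred on their medians, and leaving out 1 array gave 0.20 to 0.42 and 0.14 to 0.36. The counts of calls did not hold. Large subunit calls, 2 in the fit reported, were 7 with the replicate block, 1 with centred arrays, 1 with a trended robust prior, 0 when every probe set was tested, 23 with replicates 1 and 2 only and 0 to 5 without 1 array. Small subunit calls, 0 in the fit reported, were 3 with the replicate block, 12 with replicates 1 and 2 only and 0 to 2 without 1 array. Over all genes the 748 calls became 1424 with the replicate block, 432 when every probe set was tested, 4275 with replicates 1 and 2 only and 77 to 2238 without 1 array. Calls higher in siMnSOD made up 57.75% of all calls, and 72.28% with centred arrays. The Sod2 fold change of -1.63 passed the threshold with the block but not when every probe set was tested (-1.63, adjusted p = 0.0631) or with centred arrays (-1.54, 0.0688), and ranged from -1.88 to -1.27 without 1 array. Among the named genes, signs turned only where neither value was called. With centred arrays COX2 was 0.035, Mrpl17 0.022 and Mrps14 0.025; with replicates 1 and 2 only COX2 was 0.0094, Mrps14 0.11, Mrps26 -0.16 and Mrps31 0.035. Without 1 array the values ranged from -0.17 to 0.13 for COX2, -0.037 to 0.47 for Chchd1, -0.31 to 0.095 for Mrpl17, -0.56 to 0.30 for Mrpl33, -0.47 to 0.085 for Mrps10, -0.070 to 0.54 for Mrps12, -0.16 to 0.12 for Mrps14, -0.020 to 0.13 for Mrps18b, -0.30 to 0.30 for Mrps26, -0.22 to 0.64 for Mrps28, -0.38 to 0.29 for Mrps31, -0.12 to 0.30 for Mrps35 and -0.037 to 0.19 for ND3. Some settings also differed in the number of rows adjusted over or of arrays used. The causes of these changes were not tested.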
